A study of Mus musculus with 4 samples.

Results

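The proteasome is the protease complex that degrades proteins marked with ubiquitin. Its genes were taken as every row of the deposited expression table whose symbol begins with Psma, Psmb, Psmc or Psmd and a number, without the immunoproteasome genes Psmb8, Psmb9 and Psmb10 and without named pseudogenes. This gave 37 of 52192 genes, with 16 in the core (8 Psma, 8 Psmb) and 21 in the regulatory part (7 Psmc, 14 Psmd). RNA came from AML12, a mouse hepatocyte line, infected with lentivirus carrying a control short hairpin RNA (shCtrl, 2 libraries) or a hairpin against Safb (shSafb, 2 libraries). The Safb product is a nuclear scaffold protein with affinity for both DNA and RNA. Both groups were kept in 10% fetal bovine serum with insulin-transferrin-selenium supplement and 0.1 µM dexamethasone, a glucocorticoid, and were collected on day 5 after virus was added. The labels do not say that the 2 libraries of a group were separate cultures, and no second hairpin was analysed here, so a p-value here speaks only of the spread from library to library, which may be technical.

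The core particle is a barrel of stacked rings: outer alpha rings (Psma genes), which gate the entry, and inner beta rings (Psmb genes), which hold the active sites. The regulatory particle has a base, with a ring of ATPases (Psmc genes) that unfold substrates and thread them into the core, and a lid (most Psmd genes), which takes part in substrate capture and ubiquitin removal. Subunit genes are known to be raised together through the transcription factor encoded by Nfe2l1 when proteasome activity falls. Psmd5, Psmd9 and Psmd10 encode chaperones that assemble the base, and Psmc3ip, which the symbol rule also takes in, encodes a factor of homologous recombination and no subunit.

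Values are TPM (transcript abundance scaled to a fixed total per library), which account for gene length and so let levels be compared between genes. Depth is unknown from TPM. Safb stood at 23.8 and 23.3 TPM in the shCtrl libraries and at 15.8 and 15.02 TPM in the shSafb libraries, a difference of -0.56 ± 0.07 on the log2 scale (± SE throughout; adjusted p = 0.00411, from limma with Benjamini-Hochberg adjustment). Hepatocyte markers (9 genes, Alb, Ttr, Trf, Apoa1, Apoe, Hnf4a, Foxa2, Krt8 and Krt18) summed to 9725 to 9897 TPM in shCtrl and 13632 to 13785 TPM in shSafb. Trf rose, from 2453 and 2418 to 6814 and 6778 TPM, Alb (378 and 345 to 122 and 127 TPM), Apoa1 and Foxa2 fell, and the other 5 did not pass. The part of these shifts in the results below was not tested. Immune markers summed to 0.915 to 1.43 TPM, endothelial markers to 0.0196 to 0.144 TPM and stellate cell or fibroblast markers to 1.89 to 2.18 TPM, with Adgre1, Cd3e, Cdh5 and Kdr at 0 in all libraries. In a bulk sample, a difference in cell make-up and a difference in RNA per cell cannot be told apart.

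Most proteasome genes differed little between the groups, and those past the threshold were mainly higher in the knockdown. Of the 37 genes, 35 were tested, 14 were higher in shSafb, 2 were lower and 19 did not pass (limma on log2(scaled TPM + 1), adjusted p under 0.05 over all 13111 genes with a mean of at least 1 TPM). That is 45.7% called, beside 44.3% of all tested genes. Called shares also differed with level: 48.4% of the 31 genes of particle subunits were called, beside 57.1% of the 2745 tested genes whose mean TPM lay within the range of those subunits, 43.5 to 382. By direction, 21.9% of all tested genes were higher and 22.4% were lower. The largest rise among subunit genes was that of the lid gene Psmd6, 1.53-fold in TPM, and the largest fall that of the lid gene Psmd7, 1.48-fold. The median log2 change was 0.13 over the 35 genes and 0.00 over all tested genes. The median size of the change, without its sign, was 0.17 for the 35 genes against 0.30 for all tested genes. It was 0.27 for the 2745 tested genes within the subunits' range of mean TPM. Between the quartiles of all tested genes, -0.31 and 0.29 on the log2 scale, lay 25 of the 35, with 8 above and 2 below.

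**Figure D1:**
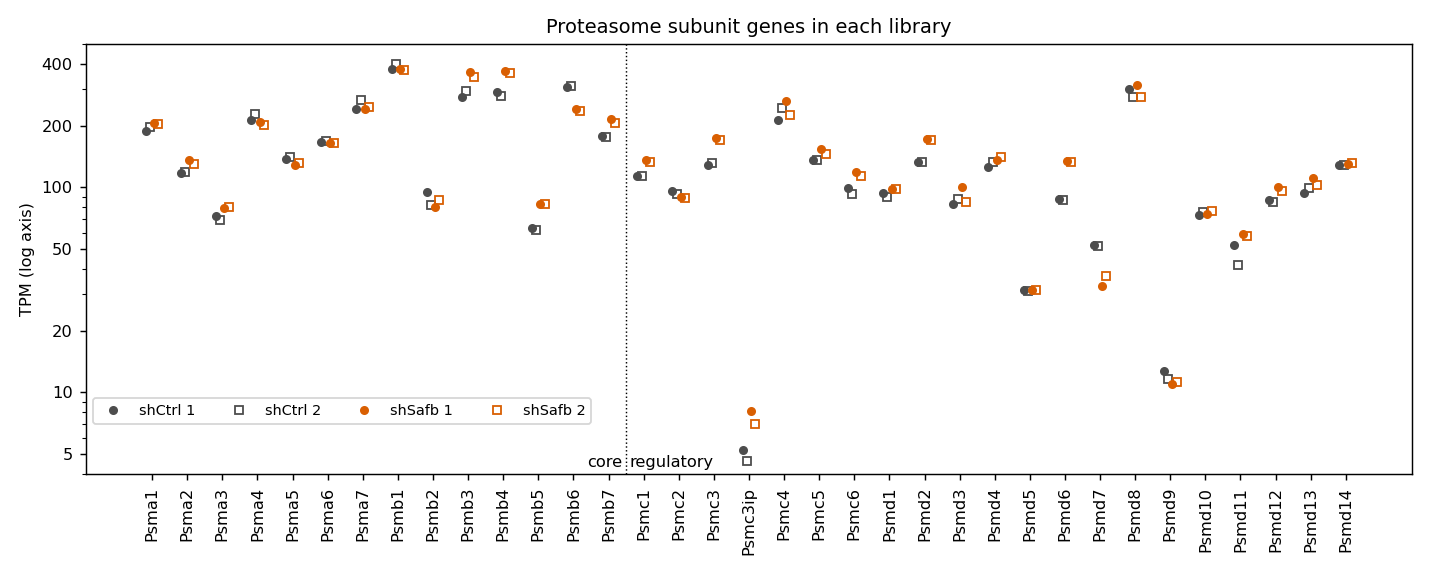
TPM (log axis) of the 35 tested genes in each library, shCtrl in grey and shSafb in orange, with circles for replicate 1 and open squares for replicate 2. The libraries of a gene lie close together, Psmb1 is the highest and Psmc3ip the lowest, and Psmd7 and Psmb6 are lower in both shSafb libraries.

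The genes left untested, Psma8 and Psmb11, were at 0 TPM in all 4 libraries. Psma8 encodes an alpha subunit of germ cells and Psmb11 a beta subunit of the thymus. The lowest value of any other gene was 4.64 TPM (Psmc3ip), so the filter on low values left out no other of the 37. In 28 of the 35 genes the deposited TPM values of the groups did not overlap, 20 higher and 8 lower in shSafb. Of all tested genes 74.7% did not overlap, 35.5% higher and 39.3% lower. These values were not scaled further, unlike those of the fit. Without shSafb replicate 1, there were 2 calls of higher genes in place of 6 in the core and 3 in place of 8 in the regulatory part, and over all genes 1768 in place of 2867. Of the 16 calls, 7 held in all 13 alternatives that were fitted: Psmb4, Psmb5, Psmb6, Psmc3, Psmd2, Psmd6 and Psmd7.

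**Figure D2:**
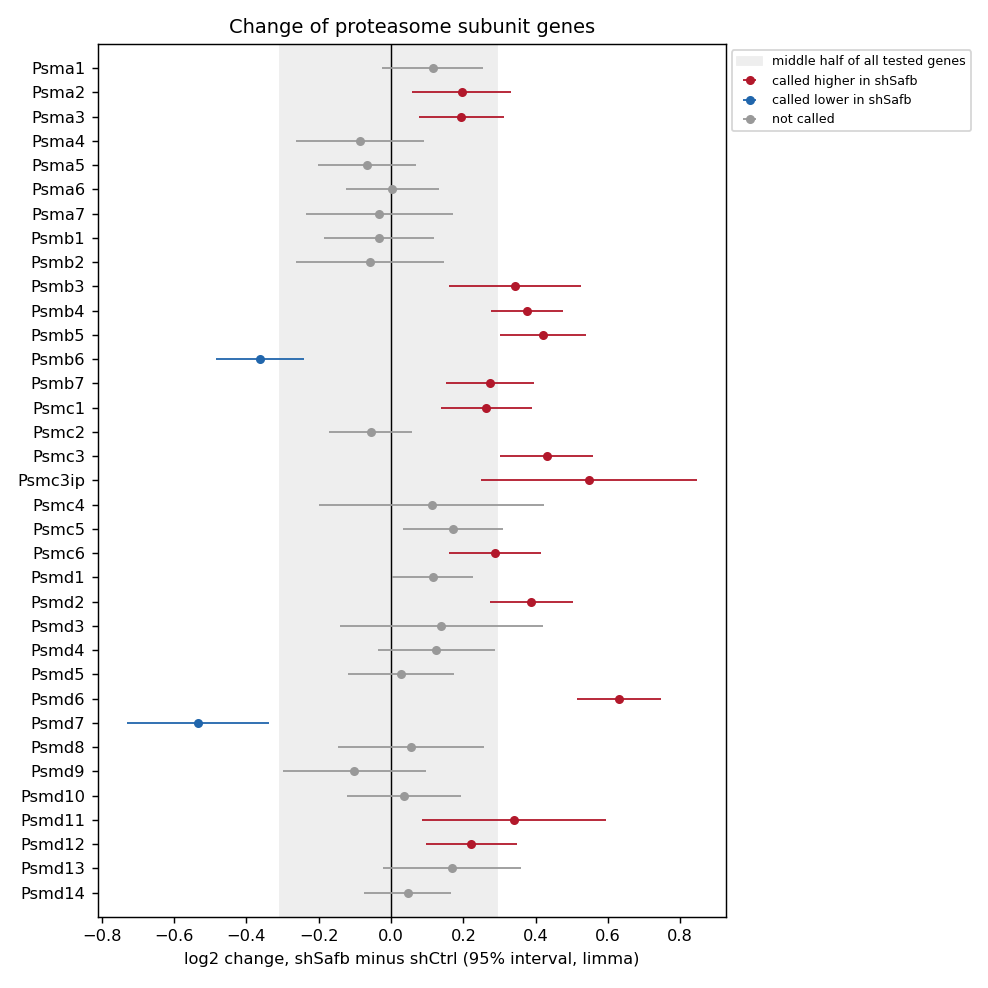
Log2 change (shSafb minus shCtrl) of each tested gene with its 95% interval from limma, red where called higher, blue where called lower and grey where not called; the shaded band spans the middle quartiles of all tested genes. Psmd6 is the farthest to the right at 0.63 and Psmd7 the farthest to the left at -0.53.

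The summed level of the alpha ring did not separate the groups. Its 7 expressed genes summed to 1133 and 1189 TPM in shCtrl and to 1162 and 1156 TPM in shSafb, so that the groups overlapped. Psma2 and Psma3 rose, none fell, and 5 did not pass. That is 28.6% called, beside 44.3% of all tested genes and 57.1% of those within the subunits' range of mean TPM. Psma2 stood at 117 and 119 TPM in shCtrl and 135 and 130.4 TPM in shSafb, with no overlap (log2 change 0.20 ± 0.05, limma adjusted p = 0.0371). Psma3, the alpha gene of the lowest level among those expressed, stood at 72.1 and 69.3 TPM in shCtrl and 78.9 and 80.4 TPM in shSafb (0.19 ± 0.04, limma adjusted p = 0.0249). These are 1.13-fold differences, and both calls were lost in 9 of 13 alternatives, among them removal of a trend on GC content and length, which left log2 changes of 0.047 and 0.086. Leaving out 1 library ended both: the limma adjusted p for Psma2 was 0.126 without shCtrl replicate 1, 0.0539 without shCtrl replicate 2, 0.153 without shSafb replicate 1 and 0.0876 without shSafb replicate 2. For Psma3 the same values were 0.0767, 0.0801, 0.0905 and 0.113.

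Psma7 had the highest level of the alpha genes, at 241 and 267 TPM in shCtrl against 241 and 246 TPM in shSafb, and its groups overlapped (95% interval of the log2 change -0.24 to 0.17). Psma1, Psma4, Psma5 and Psma6 had log2 changes between -0.09 and 0.12. Of these, Psma6 had a 95% interval of -0.12 to 0.13.

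The promoters of the called alpha genes are shown because both hold a motif of nuclear respiratory factor 1, a regulator of housekeeping genes. Sequences are from RefSeq on GRCm38.p6, the build that mm10 names, and end just before the first base transcribed in RefSeq or GENCODE. Capitals mark matches, on either strand, to the nuclear respiratory factor 1 motif (GCGCA and GCGC with 1 base of any kind between them), TGACNNNGC (the core of the antioxidant response element, bound by the proteins of Nfe2l1 and Nfe2l2), CCAAT (NF-Y) and GGGCGG (SP1). The window of Psma2 is chr13:14612992-14613239 on the plus strand and that of Psma3 chr12:70974373-70974620 on the plus strand.
Psma2: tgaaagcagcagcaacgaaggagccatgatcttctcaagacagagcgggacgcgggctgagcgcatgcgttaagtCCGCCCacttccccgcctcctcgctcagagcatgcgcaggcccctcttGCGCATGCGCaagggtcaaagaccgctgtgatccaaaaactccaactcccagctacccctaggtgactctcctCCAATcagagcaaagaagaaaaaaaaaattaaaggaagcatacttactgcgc
Psma3: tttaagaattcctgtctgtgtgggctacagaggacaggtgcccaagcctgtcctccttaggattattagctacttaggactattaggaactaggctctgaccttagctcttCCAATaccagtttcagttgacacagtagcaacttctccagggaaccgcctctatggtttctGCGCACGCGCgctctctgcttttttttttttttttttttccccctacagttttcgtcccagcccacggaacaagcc

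In Psma2 the nuclear respiratory factor 1 match begins 127 bases upstream of the RefSeq start and in Psma3 78 bases upstream. The table of windows, from 250 bases before to 50 bases after a start, held 30 of the 37 genes in 32 windows. Of those windows 6 held this motif (18.8%), those of Psma2, Psma3, Psma4, Psmc4, Psmc5 and Psmd14, beside 4.60% of all 32851 windows and 10.5% of the 11692 windows of tested genes. Only Psma2 and Psma3 of these 6 genes were called, where 44.3% of all tested genes were. GGGCGG was in 56.3% of the proteasome windows, 35.7% of all and 62.9% of those of tested genes, CCAAT in 40.6%, 37.4% and 38.0%, and TGACNNNGC in 15.6%, 12.4% and 14.6%. The proteasome windows held a median of 20 CG dinucleotides, against 7 in all windows and 21 in those of tested genes.

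The beta ring held the largest opposed changes of the core. Psmb3, Psmb4, Psmb5 and Psmb7 rose, Psmb6 fell, and Psmb1 and Psmb2 did not pass. That is 71.4% called, beside 44.3% of all tested genes and 57.1% of those within the subunits' range of mean TPM. The 7 genes summed to 1593 and 1610 TPM in shCtrl and to 1729 and 1691 TPM in shSafb, 6.77% higher on average with no overlap. Psmb1, a non-catalytic subunit gene, had the highest level of all 37 genes, at 379 and 401 TPM in shCtrl and 377 and 373 TPM in shSafb (95% interval of the log2 change -0.19 to 0.12). Psmb3 and Psmb4 also encode structural beta subunits. Psmb4 stood at 292 and 279.9 TPM in shCtrl and 368 and 361 TPM in shSafb (log2 change 0.38 ± 0.04, limma adjusted p = 0.00283). Psmb3 stood at 276 and 296 TPM in shCtrl and 366 and 347 TPM in shSafb (0.34 ± 0.07, limma adjusted p = 0.0173), a call lost without shSafb replicate 1 (0.0789). Both rose by about the same amount, 1.28-fold and 1.25-fold. Psmb2 stood between 80.1 and 95.4 TPM with overlapping groups.

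The active sites lie in the products of Psmb5 (chymotrypsin-like), Psmb6 (caspase-like) and Psmb7 (trypsin-like), and their genes went opposite ways. Psmb6 (ENSMUSG00000018286, chr11:70525367-70527858, plus strand, mm10) stood at 309.8 and 314 TPM in shCtrl and 241 and 235 TPM in shSafb. The shCtrl mean of 312 ± 2.69 TPM compared with 238 ± 4.20 TPM in shSafb (SD over 2 libraries; log2 change -0.36 ± 0.05, limma adjusted p = 0.00500). It was the only core gene called lower. Psmb5 (ENSMUSG00000022193, chr14:54614119-54618022, minus strand) stood at 63.6 and 62.2 TPM in shCtrl and 82.8 and 83.3 TPM in shSafb, from 62.9 ± 0.956 to 83.0 ± 0.349 TPM (log2 change 0.42 ± 0.05, limma adjusted p = 0.00327). Psmb7 stood at 177 and 176 TPM in shCtrl and 214 and 205 TPM in shSafb (0.27 ± 0.05, limma adjusted p = 0.0108), a call lost without shSafb replicate 1 (0.0618) and smaller with the GC and length trend removed (0.17, adjusted p = 0.0452). The ratio of Psmb6 to Psmb7 was therefore 1.75 and 1.78 in shCtrl and 1.13 and 1.15 in shSafb. The catalytic genes together summed to 551 and 552 TPM in shCtrl and 538 and 524 TPM in shSafb, a mean change of -3.65%. In relative terms this was a smaller shift than that of any one of them. The sum leaves out Gm3375, a near-identical copy of Psmb5 that is described next and was higher in shSafb.

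The level of Psmb5 is uncertain because of a near-identical copy. Gm3375, a processed pseudogene on chromosome 7 (3181093 to 3181888), matches 796 bases of the Psmb5 transcript at 98.9% identity and was listed at 46.5 and 48.2 TPM in shCtrl and 66.7 and 64.8 TPM in shSafb. Reads of one can have been assigned to the other. Psmb5 and Gm3375 together came to 110.1 and 110.4 TPM in shCtrl and 149 and 148 TPM in shSafb, 1.35-fold higher against 1.32-fold for Psmb5 alone. With the copy added, the ratio of Psmb6 to Psmb5 went from 2.81 and 2.84 to 1.61 and 1.59, where it went from 4.87 and 5.04 to 2.91 and 2.83 without it. The microRNA gene Mir686 also lies within a Psmb5 exon on the same strand. A copy of Psma3, the processed pseudogene Gm13835 on chromosome 6, held 17.8 and 16.5 TPM in shCtrl and 23.5 and 20.7 TPM in shSafb. Altogether 11 of the 37 genes had a transcript of another gene at 95% identity or more over at least 200 bases. For Psmc3ip (with Mlx) and Psmd1 (with Gm21972) that other gene overlaps the exons of the proteasome gene and is not a copy elsewhere.

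The promoters of Psmb5 and Psmb6 are shown because these genes changed in opposite directions while each holds TGACNNNGC close to its start. The match begins 47 bases upstream of the RefSeq start in Psmb5 (chr14:54618023-54618245, minus strand) and 9 bases upstream in Psmb6 (chr11:70525107-70525356, plus strand).
Psmb5: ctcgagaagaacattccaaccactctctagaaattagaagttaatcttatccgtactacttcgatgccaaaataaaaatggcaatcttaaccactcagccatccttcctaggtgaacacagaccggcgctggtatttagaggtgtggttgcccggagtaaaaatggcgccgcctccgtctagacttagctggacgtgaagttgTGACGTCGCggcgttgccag
Psmb6: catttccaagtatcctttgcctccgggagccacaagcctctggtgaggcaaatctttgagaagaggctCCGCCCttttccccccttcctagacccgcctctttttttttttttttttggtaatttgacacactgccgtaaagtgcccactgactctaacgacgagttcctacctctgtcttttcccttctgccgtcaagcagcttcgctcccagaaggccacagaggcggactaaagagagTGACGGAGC
The other proteasome windows with this motif were those of Psmc6, Psmd9 and Psmd12, where the match begins 227, 31 and 247 bases upstream. Of these genes Psmc6 and Psmd12 were called higher, where 44.3% of all tested genes were called in either direction. Their calls were lost in 2 (Psmc6) and 6 (Psmd12) of 13 alternatives. A match of letters is a description and not a binding site.

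**Figure D3:**
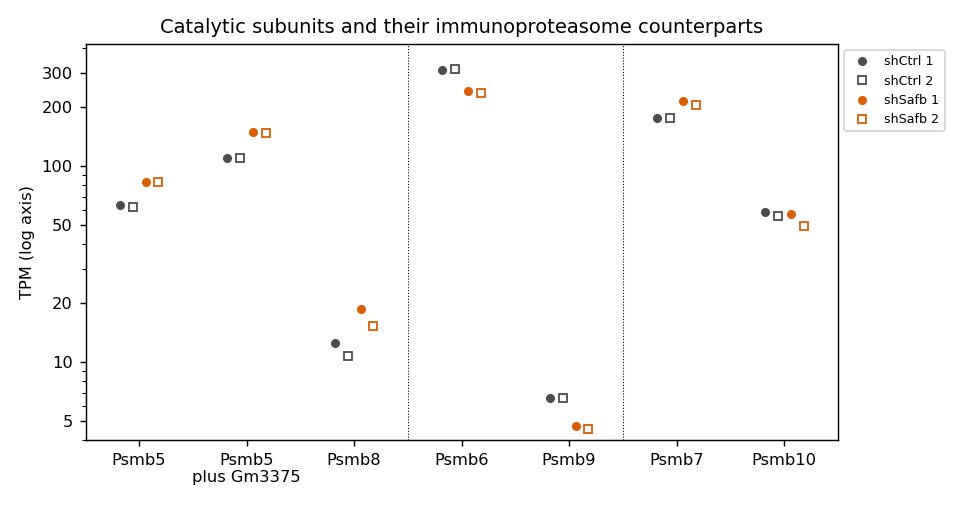
TPM (log axis) in each library of the catalytic core genes beside the immunoproteasome gene that can replace each, shCtrl in grey and shSafb in orange; Psmb5 is also drawn with its near-identical copy added. Psmb5 and Psmb8 are higher and Psmb6 and Psmb9 lower in both shSafb libraries, while Psmb10 overlaps between groups.

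The immunoproteasome genes encode alternative catalytic subunits that immune signals induce, and they were below their constitutive counterparts. Psmb8, the counterpart of Psmb5, rose from 12.5 and 10.8 TPM to 18.7 and 15.3 TPM (log2 change 0.53 ± 0.12, limma adjusted p = 0.0265). Psmb9, the counterpart of Psmb6, fell from 6.59 and 6.55 TPM to 4.76 and 4.58 TPM (-0.40 ± 0.09, limma adjusted p = 0.0268). Psmb10, the counterpart of Psmb7, was at 58.5 and 55.8 TPM in shCtrl and 56.8 and 49.6 TPM in shSafb, with overlapping groups. The call for Psmb8 was lost without shCtrl replicate 1 (adjusted p = 0.0637), shCtrl replicate 2 (0.106) or shSafb replicate 1 (0.0842). That for Psmb9 was lost without any 1 library, with limma adjusted p values of 0.0788 and 0.0956 without shCtrl replicates 1 and 2 and 0.0877 and 0.111 without shSafb replicates 1 and 2. The ratio of Psmb9 to Psmb6 was 0.0213 and 0.0209 in shCtrl and 0.0197 and 0.0195 in shSafb.

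Summed levels were higher in shSafb for both particles. The 17 Psmc and Psmd subunit genes of the regulatory particle came to 2022 and 2024 TPM in shCtrl and to 2322 and 2202 TPM in shSafb, 11.8% higher. The 14 core genes came to 2727 and 2799 TPM and then 2892 and 2847 TPM, 3.87% higher. The regulatory sum leaves out the lid subunit gene Sem1 and the ubiquitin receptor gene Adrm1, which the symbol rule does not take in. Both were uncalled and lower in shSafb without overlap, Adrm1 at 67.5 and 65.9 TPM against 60.9 and 57.0 TPM. The ratio of core to regulatory sums was 1.35 and 1.38 in shCtrl and 1.25 and 1.29 in shSafb. This difference between core and regulatory particle was not tested. Of all 21 regulatory genes, 8 rose, 1 fell and 12 did not pass. That is 42.9% called, beside 50% of the tested core genes and 44.3% of all tested genes. Of tested genes within the subunits' range of mean TPM, 57.1% were called. The median log2 change was 0.14 for the regulatory genes against 0.06 for the core.

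**Figure D4:**
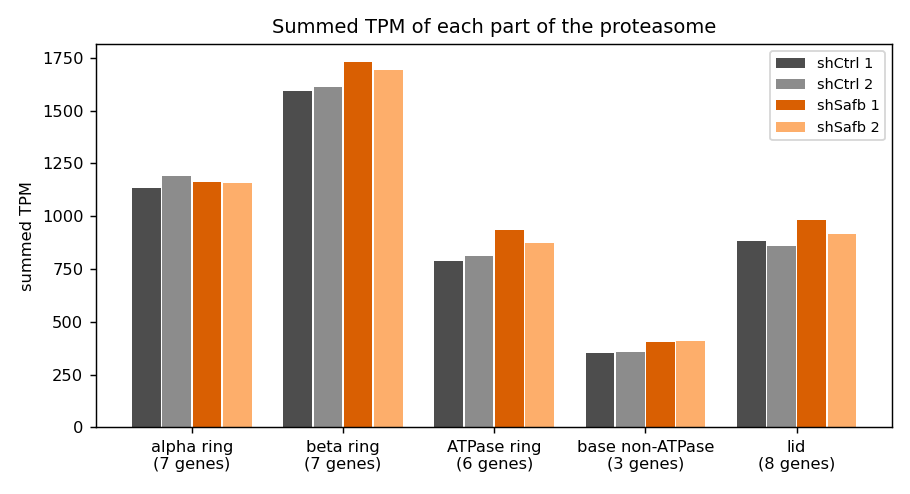
Summed TPM of each structural part in each library, with bars from 0 and shCtrl in grey, shSafb in orange; the number of genes stands under each name. The alpha ring stays within 1133 to 1189 TPM, and the other parts are higher in both shSafb libraries.

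In the ATPase ring Psmc1, Psmc3 and Psmc6 rose and none of the 6 fell. That is 50% called, beside 44.3% of all tested genes and 57.1% of those within the subunits' range of mean TPM. Psmc3 stood at 129 and 131 TPM in shCtrl and 173 and 171 TPM in shSafb (log2 change 0.43 ± 0.05, limma adjusted p = 0.00369), 1.33-fold higher with no overlap. Psmc1 stood at 113 and 114 TPM in shCtrl and 136 and 132 TPM in shSafb (0.26 ± 0.05, limma adjusted p = 0.0131). Psmc6 stood at 99.6 and 93.2 TPM in shCtrl and 118 and 113 TPM in shSafb (0.29 ± 0.05, limma adjusted p = 0.0109). The Psmc1 call was lost without shCtrl replicate 1 (0.0533) or shSafb replicate 1 (0.0715), and the Psmc6 call without shSafb replicate 1 (0.0604) or with the trend on GC content and length removed (0.145). Psmc4, the ATPase gene of the highest level, was at 214 and 245 TPM in shCtrl and 263 and 225 TPM in shSafb, with overlapping groups. Psmc5 was close to the threshold at 136 and 135 TPM against 155 and 146 TPM (limma adjusted p = 0.0538) and passed it with upper quartile scaling (0.0397) or without the GC and length trend (0.0351). Psmc2 had an interval of -0.17 to 0.06. Without the GC and length trend it was called lower, at -0.17 on the log2 scale (limma adjusted p = 0.0374).

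Psmc3 overlaps Slc39a13 on the opposite strand over 215 exonic bases, and Psmb7 overlaps Nek6 over 405. The libraries kept strand information, but the sources used here do not say whether it was used in counting. Slc39a13 was at 19.6 and 20.5 TPM in shCtrl and 10.8 and 13.9 TPM in shSafb, lower where Psmc3 was higher. Nek6 was between 14.8 and 19.1 TPM in all 4 libraries. Psmc3ip, the recombination gene that is no subunit, stood at 5.21 and 4.64 TPM in shCtrl and 8.11 and 6.97 TPM in shSafb (log2 change 0.55 ± 0.11, limma adjusted p = 0.0188). Its ratio of mean TPM was also 1.53, which the added 1 TPM shrinks on the log2 scale. It shares 385 exonic bases with Mlx on the opposite strand, whose mean was 22.0 TPM, and its call was lost without shCtrl replicate 1 (0.0575), shCtrl replicate 2 (0.0774) or shSafb replicate 1 (0.0808).

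Among the other base subunits taken in by the symbol rule, Psmd2 rose and Psmd1 and Psmd4 did not pass. Psmd2, which encodes the large scaffold that docks ubiquitin shuttles, stood at 133 in both shCtrl libraries and at 173 and 170.2 TPM in shSafb. Its log2 change of 0.39 ± 0.04 passed with a limma adjusted p of 0.00362. Psmd4, the gene of a ubiquitin receptor, was at 125 and 132 TPM in shCtrl and 136 and 141 TPM in shSafb, and the groups did not overlap (95% interval of the log2 change -0.04 to 0.29). Psmd1, the other large scaffold gene, had a log2 change of 0.12 ± 0.04 (limma adjusted p = 0.0858), and passed with upper quartile scaling (0.0454).

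The lid held both extremes of the whole set. Psmd6 (ENSMUSG00000021737, chr14:14112174-14120984, minus strand), a structural lid subunit gene, stood at 87.6 and 86.8 TPM in shCtrl and 134 and 132 TPM in shSafb. Its mean rose from 87.2 ± 0.586 to 133 ± 1.11 TPM (SD, n = 2 each; log2 change 0.63 ± 0.04, limma adjusted p = 0.00126), and it was the only one of the 37 genes called with a change of at least 1.5-fold on the log2(scaled TPM + 1) scale, which 20.7% of all tested genes showed. Of all tested genes, 9.84% had a larger log2 change upward. Psmd7 (ENSMUSG00000039067, chr8:107580381-107588464, minus strand) stood at 52.0 and 51.8 TPM in shCtrl and 32.9 and 37.1 TPM in shSafb. The shCtrl mean of 51.9 ± 0.151 TPM compared with 35.0 ± 2.93 TPM in shSafb (log2 change -0.53 ± 0.07, limma adjusted p = 0.00642), and 13.4% of all tested genes had a lower log2 change. The groups of both genes were far apart, and the ratio of Psmd6 to Psmd7 went from 1.68 in both shCtrl libraries to 4.07 and 3.57 in shSafb.

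The product of Psmd7 pairs with that of Psmd14, the deubiquitinase that removes ubiquitin chains at the entry. Psmd14 was not called, at 128 and 129 TPM in shCtrl and 129 and 132 TPM in shSafb (95% interval of the log2 change -0.08 to 0.17). Psmd14 was 2.47 and 2.49 times the level of Psmd7 in shCtrl and 3.93 and 3.56 times in shSafb. Psmd12 stood at 86.6 and 84.8 TPM in shCtrl and 100.4 and 96.4 TPM in shSafb (log2 change 0.22 ± 0.05, limma adjusted p = 0.0210). Psmd11 stood at 52.2 and 41.9 TPM in shCtrl and 59.0 and 57.9 TPM in shSafb (0.34 ± 0.10, limma adjusted p = 0.0453). Both encode structural lid subunits. Their calls depended on single libraries: for Psmd12 the limma adjusted p was 0.0793 and 0.0628 without shCtrl replicates 1 and 2 and 0.102 and 0.0582 without shSafb replicates 1 and 2. A transcript 97.3% identical to 219 bases of Psmd11, A730017L22Rik, was lower in shSafb (2.71 and 2.85 TPM against 7.63 and 7.45 TPM). The longest Psmd11 transcript has 2975 bases, and reads of the shared stretch cannot be told apart with certainty. The Psmd11 call was lost in 9 of 13 alternatives, and its log2 change was 0.20 both without shCtrl replicate 2 (limma adjusted p = 0.0791) and after subtraction of the GC and length curve (0.156). Its limma adjusted p was 0.140 and 0.114 without shSafb replicates 1 and 2.

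Psmd8 had the highest level of the Psmd genes, at 300.4 and 276 TPM in shCtrl and 314 and 275 TPM in shSafb, and its groups overlapped. Psmd3 overlapped too, and Psmd13 had a log2 change of 0.17 ± 0.07 (limma adjusted p = 0.125). The levels within the lid therefore spanned from the mean of 43.5 TPM of Psmd7 to that of 292 TPM of Psmd8, although the lid holds these subunits in equal number. The assembly chaperones were all uncalled. Psmd9, the lowest Psmd gene, was at 12.7 and 11.7 TPM in shCtrl and 10.98 and 11.2 TPM in shSafb, Psmd5 stayed between 31.3 and 31.6 TPM in all 4 libraries, and Psmd10 between 73.0 and 76.4 TPM.

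The promoter of Psmd6 (chr14:14120985-14121195, minus strand) is shown because this gene had the largest change of the set on the log2 scale. It holds a GGGCGG match and none of the other motifs searched.
Psmd6: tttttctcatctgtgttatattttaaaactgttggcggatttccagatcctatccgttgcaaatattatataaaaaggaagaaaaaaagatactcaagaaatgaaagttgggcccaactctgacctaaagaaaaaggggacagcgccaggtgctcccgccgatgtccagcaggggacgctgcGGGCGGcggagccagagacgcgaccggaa

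The 37 genes lie on 16 chromosomes, with 7 on chromosome 11, and 6 of them start within 1000 bases of a protein-coding gene that is read the other way. These pairs are Psma2 with Mrpl32, Psma7 with Ss18l1, Psmb1 with Tbp, Psmc2 with Dnajc2, Psmc5 with Ftsj3 and Psmd10 with Atg4a. Of these 6 proteasome genes, Psma2 alone was called, where 44.3% of all tested genes were.

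Beyond the subunits, 41 genes of the ubiquitin-proteasome system from a separate list (other subunits, activators, assembly factors, shuttles, ubiquitin genes and regulators) were read from the same fit. Of these, 8 rose, 8 fell and 25 did not pass, which is 39.0% called, beside 44.3% of all tested genes. Their median log2 change was -0.06. The transcription factor genes Nfe2l1 and Nfe2l2 had the first and second largest falls on the list. Nfe2l1 stood at 63.4 and 66.9 TPM in shCtrl and 39.2 and 35.0 TPM in shSafb (log2 change -0.77 ± 0.08, limma adjusted p = 0.00339). Nfe2l2, which encodes the regulator of antioxidant genes, stood at 122 and 119 TPM in shCtrl and 67.7 and 71.8 TPM in shSafb (-0.75 ± 0.05, limma adjusted p = 0.00113). Both calls held in all 13 alternatives. The RNA of both factors was lower in the libraries in which 13 of the 15 called genes of particle subunits were higher. Over all tested genes, 49.4% of the calls were higher. Whether the changes of these factors and of the subunit genes are linked was not tested, and only RNA was measured here. Ddi2 and Ngly1, whose products activate the Nfe2l1 protein, did not pass, with log2 changes of -0.14 and 0.16.

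**Figure D5:**
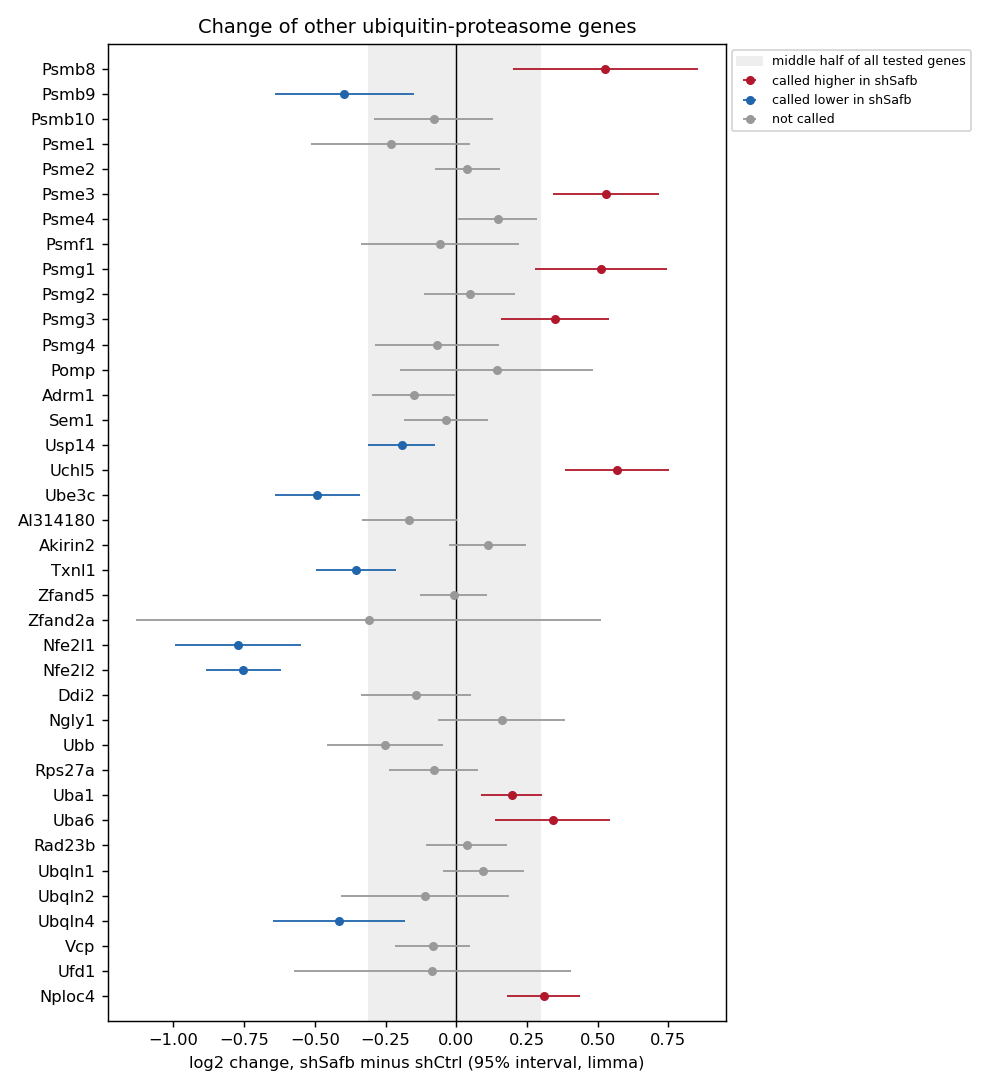
Log2 change (shSafb minus shCtrl) of 38 other ubiquitin-proteasome genes with 95% intervals from limma, coloured by call, with the middle quartiles of all tested genes shaded. Nfe2l1 and Nfe2l2 lie farthest to the left, at -0.77 and -0.75, and Uchl5 farthest to the right at 0.57.

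Of the activators and assembly factors, Psme3, Psmg1 and Psmg3 rose and the others did not pass. Psme3, the gene of the nuclear activator cap, rose from 38.5 and 39.4 TPM to 53.1 and 58.4 TPM (log2 change 0.53 ± 0.07, limma adjusted p = 0.00572). Psme1, Psme2, Psme4 and the inhibitor gene Psmf1 did not pass. The chaperone genes Psmg1 and Psmg3 rose, Psmg1 from 22.5 and 19.97 TPM to 32.0 and 28.3 TPM (0.51 ± 0.09, adjusted p = 0.0118) and Psmg3 from 16.7 and 16.2 TPM to 21.7 and 20.1 TPM (0.35 ± 0.07, adjusted p = 0.0190). Without shCtrl replicate 2 the limma adjusted p was 0.0532 for Psmg1 and 0.0672 for Psmg3, and for Psmg3 it was 0.0721 without shCtrl replicate 1 and 0.0880 without shSafb replicate 1. Psmg2, Psmg4 and Pomp had overlapping groups.

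The genes of proteasome-bound enzymes went both ways. Uchl5, encoding a deubiquitinase of the regulatory particle, rose from 17.7 and 18.3 TPM to 27.2 and 26.2 TPM (log2 change 0.57 ± 0.07, limma adjusted p = 0.00452). Usp14, encoding another deubiquitinase, fell from 77.5 and 73.9 TPM to 65.3 and 64.4 TPM (-0.19 ± 0.05, limma adjusted p = 0.0266), a call lost without any 1 library (0.0667 to 0.135), while removing the GC and length trend gave -0.39 (limma adjusted p = 0.00414). Ube3c, the gene of a ubiquitin ligase that binds the proteasome, fell from 57.0 and 53.2 TPM to 37.1 and 39.3 TPM. Txnl1, encoding a thioredoxin-like protein of the regulatory particle, fell from 92.9 and 94.2 TPM to 73.0 and 70.4 TPM. Both passed in every alternative fitted (log2 changes -0.49 ± 0.06 and -0.35 ± 0.05, limma adjusted p = 0.00388 and 0.00782), and Txnl1 was at -0.54 with the GC and length trend removed. Sem1, a small lid subunit gene outside the symbol rule, was at 109 and 113 TPM in shCtrl and 107 and 105 TPM in shSafb (log2 change -0.04 ± 0.06). Adrm1, the gene of a ubiquitin receptor, AI314180, Akirin2, Zfand5 and Zfand2a also did not pass.

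Among the genes of shuttles that bring ubiquitinated proteins to the proteasome, Ubqln4 fell from 36.6 and 30.3 TPM to 24.5 and 24.2 TPM (-0.41 ± 0.09, adjusted p = 0.0207), a call lost without shSafb replicate 1 (0.0771) or shSafb replicate 2 (0.0817), and Ubqln1 and Ubqln2 had overlapping groups. Nploc4, encoding a cofactor of the unfolding enzyme from Vcp, rose from 55.1 and 51.5 TPM to 64.2 and 66.0 TPM (0.31 ± 0.05, limma adjusted p = 0.00926), a call lost without shSafb replicate 2 (0.0526). Vcp and Ufd1 did not pass. The ubiquitin genes Ubb and Rps27a did not pass either, with Ubb at 474 and 512 TPM against 424 and 390.2 TPM (limma adjusted p = 0.0566). The ubiquitin-activating enzyme genes both rose, Uba1 from 422 and 389 TPM to 455 and 458 TPM (0.20 ± 0.04, adjusted p = 0.0190) and Uba6 from 10.03 and 9.47 TPM to 12.0 and 12.8 TPM (0.34 ± 0.08, adjusted p = 0.0241). Leaving out single libraries gave limma adjusted p values for Uba1 of 0.0628 without shCtrl replicate 2 and 0.0888 and 0.0932 without shSafb replicates 1 and 2, and for Uba6 of 0.0723 to 0.108 without each of the 4. With the GC and length trend removed, Uba6 had a log2 change of 0.00.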

How the data were processed

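The labels' protocols describe ribosomal RNA depletion and strand-specific libraries of total RNA, and the submitters' processing notes name HISAT2, HTSeq, StringTie, DESeq2 and mm10 without versions or an annotation release. Each gene has a TPM value in each library, as deposited by the authors (column totals 999843 to 999891), with group and replicate taken from the titles. Rows that shared 1 of 6 repeated identifiers were added together. Genes with a mean of at least 1 TPM (13111) were divided by a median-ratio factor per library (0.991 to 1.03) and fitted as log2(scaled TPM + 1) with limma 3.58.1 in R 4.3.3 (group as the only term, variance trend on mean level, 2 degrees of freedom from the libraries and 2.61 from the prior). Tests were two-sided, and Benjamini-Hochberg adjustment covered all fitted genes, with calls under 0.05. Log2 changes understate low genes. An exact permutation of 2 against 2 libraries cannot reach 0.05 and was not used. The fit was tested on simulated data. Positions are from GENCODE mouse release 21 on GRCm38, promoter windows from RefSeq, and near-identical transcripts from BLAST 2.17.0. Tables were handled in pandas 2.3.3 and numpy 2.4.6 under Python 3.11.15, and plots made with matplotlib 3.10.9.

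The genes, lists and motifs were chosen with earlier results of these data known. Every gene of the rule is named. Values in every library are given for called genes, the catalytic genes, the highest and lowest gene of each family, Psmd2, Psmd4 and Psmd14, and called genes of the wider list; Psmb2, Psmc2, Psmc5, Psmd5, Psmd10, Psmb10, Sem1, Ubb and the genes overlapping or copying a member were added after their values were seen. The 13 alternatives varied the pseudocount, the filter, scaling and the variance trend, added a replicate block or left out each library in turn. They also included subtraction of a loess curve fitted to GC content and length, which was chosen after seeing the data. The fold threshold was applied apart from these 13, and of the 16 calls only that of Psmd6 reached it. Of the 41 genes of the wider list, 3 are counted but not reported here by name.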

Additional observations from a re-analysis of the deposited data

How the results depend on the processing

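Depth limits could not be read from TPM, and 2 libraries a group limit what could be called: 95% intervals of uncalled genes among the 37 reached 0.42 on the log2 scale, and in the wider list that of Zfand2a ran from -1.13 to 0.51. Of the 16 calls, 9 were lost in at least 1 of 13 alternatives, and none reversed. Higher calls over all genes went from 2867 to 1768 to 2124 with 1 library left out (lower calls 1961 to 2186 from 2938), core higher calls from 6 to 2 to 4, regulatory higher calls from 8 to 3 to 6, and the wider list from 8 higher to 3 to 6 and from 8 lower to 5 to 7. With no filter the wider list had 5 higher. Calls that also reached a 1.5-fold change numbered 1303 higher and 1408 lower over all genes, with 0 and 0 in the core, 1 and 0 in the regulatory part and 0 and 3 in the wider list. The core median log2 change, 0.06, was 0.042 with a filter at a mean TPM of 0.1, 0.041 unfiltered, 0.035 unscaled, 0.10 under upper quartile scaling, 0.021 unscaled without small RNA and mitochondrial genes, and 0.038 after subtracting the GC and length curve. With 1 library left out it ran from 0.037 to 0.11, and the regulatory median, 0.14, from 0.095 to 0.23. The median log2 change of all tested genes, 0.002, was -0.021 unscaled and 0.037 under upper quartile scaling. It was -0.032 unscaled without small RNA and mitochondrial genes, and -0.020 after subtracting the GC and length curve. With a filter at a mean TPM of 0.1 it was 0.007, and unfiltered 0.008. After the GC and length curve was subtracted, 2 regulatory genes were lower in place of 1. With no filter Psma2 (limma adjusted p = 0.0866), Psmb3 (0.0575), Psmc3ip (0.0631) and Psmd11 (0.110) were not called, and with a filter at 0.1 TPM Psma2 (0.0634) and Psmd11 (0.0670) were not. Why these values moved was not tested.

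The titles give replicate numbers and do not say whether libraries of the same number were paired. Deviations from the group means correlated at -0.06 between the groups, which shows no strong shared deviation and does not settle the pairing. With a replicate block 4 core genes were higher and 1 lower, 7 regulatory genes higher and 1 lower, and 2540 of all genes higher and 2686 lower, and the core and regulatory medians stayed at 0.06 and 0.14. The calls lost among the 37 genes were Psma2 (adjusted p = 0.0824), Psma3 (0.0690) and Psmd12 (0.0546), and in the wider list Psmb9 (0.0559), Usp14 (0.0713), Uba1 (0.0573) and Uba6 (0.0505), all from limma.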
